A study of Mus musculus with 3 samples.

Results

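Fibril-forming collagens are the 9 genes Col1a1, Col1a2, Col3a1, Col5a1, Col5a2, Col5a3, Col2a1, Col11a1 and Col27a1, out of 16621 genes listed in at least 1 library. They were chosen by name, as the mouse genes for chains of the fibrillar collagens I, II, III, V, XI and XXVII, and matched by gene ID. All 9 had an estimate above 0 in every library and all 9 passed the filter on low counts. The remaining mouse chains of this kind, Col11a2 and Col24a1, are given beside them.

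The study sequenced poly(A) RNA from tail tendon derived stem cells, progenitors grown out of the tail tendon of C57BL/6 mice 10 weeks old. There was 1 wild-type library (WT), and 2 libraries carried the ΔF508 mutation of the chloride channel gene Cftr (DF508). All were untreated, grown in low-glucose medium with serum, and taken at passage 4 when the dish was confluent. The labels state neither the zygosity of the mutation nor how many animals or cultures stand behind a library, so a p-value reflects how these libraries varied, and that variation may be technical.

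Fibrillar collagens are the rope-like proteins that give tendon its tensile strength. Each molecule is a triple helix whose chains carry glycine at a fixed, short spacing. The chains are made as procollagens, hydroxylated and folded in the endoplasmic reticulum, trimmed outside the cell and crosslinked by lysyl oxidases. Type I collagen, built from Col1a1 and Col1a2 chains, is the bulk of a tendon fibril. Type III mixes into thin and healing fibrils, type V starts fibrils and limits their width, and types II and XI belong mainly to cartilage.

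The shared build of these genes is visible in their coding sequence. Chains of this family carry glycine at a fixed spacing, so a long run follows from the choice by name and is a description. The exon lengths below were set against all protein-coding genes and not against other collagens. In GENCODE M21 (build GRCm38) the longest uninterrupted run of 9-base repeats that each open with a glycine codon (GGN, with N any base) was 338 repeats in Col1a1, 339 in Col1a2, 344 in Col3a1 and 337 in Col5a3. It was 338 in Col5a1 and Col11a1 and 339 in Col5a2 and Col2a1. Col27a1 had a shorter run of 217, close to the 216 of Col24a1. Of 21840 protein-coding genes, 9 held a run of at least 300 repeats: the other 8 members and Col11a2. A run of at least 100 repeats was held by 15 genes. They were all 9 members, Col11a2, Col24a1, Col22a1, Col9a1, Col9a2 and Col9a3. Of the members' coding exons, 74.6% in Col5a3 to 88.5% in Col1a2 had a length that is a multiple of 9 bases, against 14.5% of those of all protein-coding genes. Of the coding exons, 41.2% in Col1a1 to 54.1% in Col27a1 were exactly 54 bases long, against 0.675% of 212295 coding exons of all protein-coding genes. The first coding exon of this kind is shown for 5 chains that the results turn on, with the glycine codon of each of its 6 repeats in capitals, 5′ to 3′ on the coding strand.
Col1a1, exon 8 of 51, chr11:94939904-94939957, plus strand: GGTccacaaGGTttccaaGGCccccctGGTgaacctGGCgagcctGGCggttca
Col1a2, exon 8 of 52, chr6:4515481-4515534, plus strand: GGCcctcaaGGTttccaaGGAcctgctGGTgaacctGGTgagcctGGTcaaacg
Col3a1, exon 6 of 51, chr1:45325360-45325413, plus strand: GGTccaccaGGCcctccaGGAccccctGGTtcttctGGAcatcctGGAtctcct
Col5a2, exon 6 of 54, chr1:45434892-45434945, minus strand: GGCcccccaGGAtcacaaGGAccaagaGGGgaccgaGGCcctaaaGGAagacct
Col27a1, exon 4 of 61, chr4:63231792-63231845, plus strand: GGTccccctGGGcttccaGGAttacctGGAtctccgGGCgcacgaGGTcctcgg
These chains repeat the same frame with different bases, and every member except Col5a1 had whole-number count estimates in all libraries. Col5a1 had fractional estimates in both DF508 libraries, so some of its reads were shared with another gene or copy and its value is uncertain.

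Of the libraries as a whole, the total estimated count ran from 5241826 to 5298326 and the number of genes listed from 15346 to 15474. Cftr had 15 counts in WT and 1 in each DF508 library; ΔF508 is an in-frame deletion, so this level does not check the labels. Chi-square over degrees of freedom, across genes, was 3.57 between the DF508 pair and 6.83 and 7.98 between WT and each of them. All 7 tendon markers looked for, such as Tnmd and Scx, were listed in every library. Their summed level was 21958 to 24269 CPM (counts scaled to the library total), most of it from Thbs4. The sum hides opposite directions: of the 7, 3 had a positive and 4 a negative fitted difference, none of them called. At an unadjusted edgeR p under 0.05 there were 5 of the 7, where 11.9% of all genes tested were. Myeloid markers summed to 103 CPM in WT, 163 in DF508 replicate 1 and 747 in replicate 2, and 15 of 15 tested had a positive fitted difference, none of them called. Smooth muscle and pericyte markers summed to 652, 1571 and 1574 CPM, with 5 of 7 tested called higher, and proliferation markers to 371, 667 and 770 CPM, with 5 of 8 called higher. Calls are those of the edgeR fit described below, at an adjusted p under 0.05. Of all 12888 genes tested in it, 0.489% were called higher and 6561 genes had a positive fitted difference. Summed levels were low for chondrocyte (62.5 to 87.5 CPM), endothelial (14.9 to 18.9), osteoblast (14.5 to 26.7), Schwann (7.25 to 14.3), skeletal muscle (2.73 to 6.49) and epithelial (0 to 0.763) markers. The defining markers Acan, Pecam1, Cdh5, Bglap, Cdh1 and Myod1 have no row in any table and were set to 0.

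Together the 9 genes took 2.56% of all counts in WT, 2.85% in DF508 replicate 1 and 2.85% in replicate 2. Exact (Clopper-Pearson) 95% intervals, which cover counting error only, were 2.55% to 2.57%, 2.84% to 2.86% and 2.84% to 2.87%. Both DF508 libraries therefore lay above WT, by 1.11-fold on the mean, and close to each other. The members made up 69.3%, 68.8% and 71.4% of the counts of all collagen genes. Within the members, Col1a1 and Col1a2 held 66.9% of the counts in WT, 69.7% in DF508 replicate 1 and 71.3% in replicate 2, while the type V chains held 24.7%, 22.4% and 20.6%. Of the members' counts, the type I share was thus higher and the type V share lower in both DF508 libraries than in WT. Of all counts, the type V chains took 0.631% in WT, 0.638% in DF508 replicate 1 and 0.587% in replicate 2, with WT between the DF508 libraries, and the type I chains 1.71%, 1.99% and 2.04%.

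**Figure D1:**
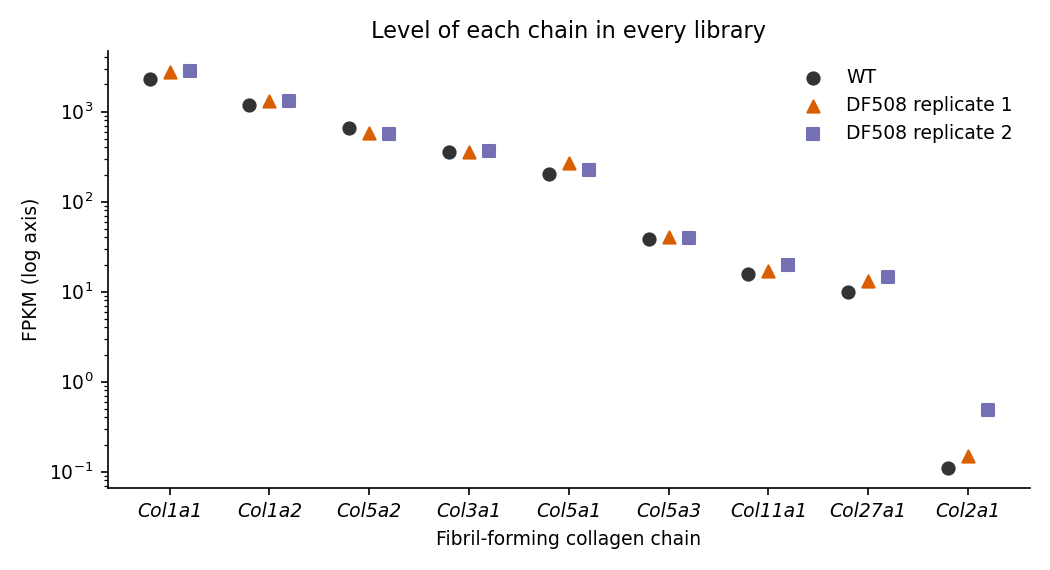
Level of each fibril-forming collagen chain as deposited FPKM (log axis) in the WT library and both DF508 libraries, 1 point per library. The chains keep 1 order in all 3 libraries, from Col1a1 at 2305 to 2852 FPKM down to Col2a1 at 0.11 to 0.48 FPKM.

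By FPKM, which scales the count to gene length and library size, the chains stood in 1 order in every library. Col1a1 was highest, then Col1a2, Col5a2, Col3a1, Col5a1, Col5a3, Col11a1, Col27a1 and Col2a1. For each neighbouring pair the lowest library of the upper chain lay above the highest library of the lower chain. The narrowest step was from Col11a1, at 15.8 FPKM or more, to Col27a1, at 14.5 FPKM or less. Among all genes by FPKM, Col1a1 held rank 10 in WT, rank 6 in DF508 replicate 1 and rank 5 in replicate 2.

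The comparison of DF508 with WT asked whether mutant tendon cells carry other amounts of these transcripts. In the fit across all 12888 genes tested (edgeR's quasi-likelihood test, called at a Benjamini-Hochberg adjusted p under 0.05), none of the 9 members was called, where 1.39% of all genes tested were, 0.489% higher and 0.9% lower. At an unadjusted p under 0.05 there were 3 members, Col1a1, Col5a2 and Col27a1, where 11.9% of all genes tested were. On TMM-normalized CPM, WT lay below both DF508 libraries in 7 members and above both in 1. Of all genes tested, 36.3% had WT below and 36.2% had it above both, or 72.5% in either direction. The 8 of 9 members with WT outside the DF508 pair in either direction are near that background. The 7 of 9 with WT below both are a larger part than 36.3%, and this difference was not tested. The 7 include Col5a3, with log2 differences from WT of only 0.032 and 0.0070 in DF508 replicates 1 and 2. They also include Col2a1, with 3 counts in WT and 4 and 13 in DF508. The median log2 fold change was 0.17 over the members and 0.0055 over all genes tested. Fold changes from the fit use TMM factors; scaled to library totals alone, the median over all genes was 0.0501. With 1 WT library the spread comes from the DF508 pair alone, and WT was assumed to vary like it.

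**Figure D2:**
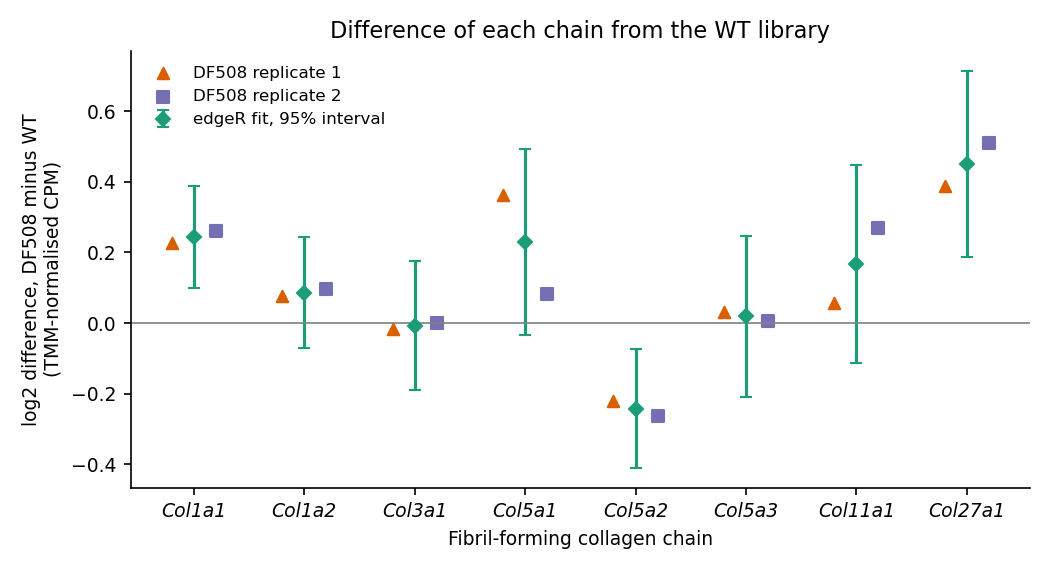
Difference of each chain from WT on the log2 scale of TMM-normalized CPM, for each DF508 library (triangles and squares) and for the edgeR fit (diamonds, with 95% intervals); Col2a1, with 3 to 13 counts, is left out. The intervals of Col1a1 and Col27a1 lie above 0 and that of Col5a2 below 0, and none of the 3 passed after adjustment over all genes.

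Col1a1, which gives the main chain of type I collagen, had 57888 counts in WT, 68956 in DF508 replicate 1 and 70935 in replicate 2. Its FPKM was 2305, 2776 and 2852. Both DF508 libraries were above WT, and the gap from WT to the nearer of them was larger than the gap between them. Scaled to the library total, replicate 1 was 1.20-fold and replicate 2 was 1.24-fold above WT, with counting intervals of 1.19 to 1.22 and 1.22 to 1.25. The fitted fold was 1.18 (log2 0.24 ± 0.064 SE, 95% interval of the fold 1.07 to 1.31), and the gene did not pass (edgeR adjusted p = 0.147, unadjusted p = 0.00447). By count Col1a1 held rank 4 in each library.

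Col1a2, the partner chain of type I collagen, had 32787 counts in WT and 35202 and 35860 in DF508 replicates 1 and 2. Its FPKM was 1194, 1297 and 1319. Here too WT was lowest and the DF508 libraries lay close together. The fitted fold was 1.06 with a 95% interval of 0.952 to 1.18 (edgeR adjusted p = 0.696), an interval that includes a fold of 1.

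Col3a1 encodes the single chain type of collagen III, found beside type I in thin and repairing fibrils. It had 10490 counts in WT, 10570 in DF508 replicate 1 and 10733 in replicate 2, or 353, 359.7 and 364.8 FPKM. The libraries were nearly level, and the fitted fold was 0.995 with a 95% interval of 0.877 to 1.13 (edgeR adjusted p = 0.985). Its direction depended on the scaling: WT was lowest on library totals and between the DF508 libraries on TMM-normalized CPM.

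Col5a2, a chain of collagen V, was the member with WT above both DF508 libraries. It had 23038 counts in WT, 20139 in DF508 replicate 1 and 19614 in replicate 2, and its FPKM was 652, 576 and 560.1. The DF508 libraries lay close together and well below WT. The fitted fold change was 1.18-fold lower in DF508 (log2 -0.24 ± 0.074 SE, 95% interval of the DF508 to WT fold 0.753 to 0.949), and the gene did not pass (edgeR adjusted p = 0.206, unadjusted p = 0.00981). Col5a2 and Col3a1 are neighbours on chromosome 1 with no gene listed between them, and on opposite strands, in the RefSeq gene table of GRCm38.p6. Their fitted values were not alike, at -0.24 and -0.0076 on the log2 scale. The difference between them was not tested.

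Col5a1, the main chain of collagen V, had 9163 counts in WT, 12011.76 in DF508 replicate 1 and 9915.47 in replicate 2. Its FPKM was 203, 269.5 and 222. Replicate 1 stood well above the others, and replicate 2 was nearer to WT than to replicate 1. On library totals replicate 1 was 1.33-fold and replicate 2 was 1.09-fold above WT. The fitted fold was 1.17 with a 95% interval of 0.976 to 1.41 (edgeR adjusted p = 0.49).

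Col5a3, the least abundant collagen V chain, had 1241, 1293 and 1275 counts in WT and DF508 replicates 1 and 2, or 38.2, 40.2 and 39.6 FPKM. All 3 libraries were close. The fitted fold was 1.01 with a 95% interval of 0.865 to 1.19 (edgeR adjusted p = 0.969).

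Col27a1 is a later-described fibrillar chain whose longest run of repeats, given above, is shorter than in the other members. It had 403 counts in WT, 537 in DF508 replicate 1 and 587 in replicate 2. Its FPKM was 9.87, 13.3 and 14.5. Both DF508 libraries were above WT, by more than they differed from each other. On library totals the folds were 1.35 and 1.47, with counting intervals of 1.18 to 1.54 and 1.29 to 1.67. The fitted fold was 1.37 (log2 0.45 ± 0.12 SE, 95% interval of the fold 1.14 to 1.64), and the gene did not pass in edgeR's quasi-likelihood test (adjusted p = 0.138, unadjusted p = 0.00403). With edgeR's likelihood ratio test, which called 3.13% of all genes tested, it was the one member called (adjusted p = 0.0489).

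Col11a1, a chain of collagen XI that also joins collagen V chains outside cartilage, had 615 counts in WT, 652 in DF508 replicate 1 and 758 in replicate 2, or 15.8, 16.9 and 19.7 FPKM. Replicate 1 was nearer to WT than to replicate 2. The fitted fold was 1.12 with a 95% interval of 0.925 to 1.36 (edgeR adjusted p = 0.67). Replicate 2 is also the library with the highest myeloid marker sum, 747 CPM. Its chondrocyte marker sum was the highest of the libraries with Sox9, 87.5 CPM, and the lowest without Sox9, 7.62 CPM. The part of any of these cells in the Col11a1 value was not tested.

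Col2a1, the cartilage collagen II gene, was barely detected, with 3 counts in WT, 4 in DF508 replicate 1 and 13 in replicate 2, or 0.11, 0.15 and 0.48 FPKM. Replicate 2 stood alone, and its ratio to replicate 1 was 3.25 with an exact counting interval of 1.00 to 13.7. With the DF508 libraries summed, 17 counts against 3, the ratio to WT was 2.86 with an exact 95% interval of 0.828 to 15.2. The fit gave a fold of 2.70 with a 95% interval of 0.408 to 17.9 (edgeR adjusted p = 0.712). The gene length that went with the estimate was 4944 bases in WT and replicate 1 and 5149 in replicate 2. The RefSeq transcripts named with the deposited Col2a1 values match a pair of GENCODE M21 transcripts, with coding lengths of 4257 and 4461 bases. At 3 to 13 counts the choice between these transcripts was not resolved. Chondrocyte markers summed to 62.5 CPM in WT and 81.3 and 87.5 CPM in DF508, with Acan at 0 in all libraries and most of the sum from Sox9. Without Sox9 the sums were 8.30, 14.9 and 7.62 CPM, lowest in replicate 2, where Col2a1 was highest, and their part in these counts was not tested.

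Of the chains outside the list of 9, Col24a1 had 183, 151 and 176 counts in WT and DF508 replicates 1 and 2, and a fitted fold of 0.875 with a 95% interval of 0.667 to 1.15 (edgeR adjusted p = 0.736). Col11a2 had 6, 2 and 7 counts and did not pass the filter on low counts. The interval of Col24a1 included a fold of 1.

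Ratios between chains do not depend on library size, since both chains come from the same library. For the 9 ratios computed no test was made, and a permutation of 1 against 2 libraries could not give a p below 0.333. The ratio of Col1a1 to Col1a2, by FPKM, was 1.93 in WT, 2.14 in DF508 replicate 1 and 2.16 in replicate 2. Collagen I protein holds a pair of Col1a1 chains for each Col1a2 chain, but RNA was measured here, not protein. The DF508 libraries were 10.9% and 12.0% above WT and were 0.021 apart, against a gap of 0.211 between WT and the nearer of them. Counted per kilobase, the exact counting intervals were 1.90 to 1.95 in WT, 2.11 to 2.17 in replicate 1 and 2.13 to 2.19 in replicate 2, and that of WT did not overlap the others. These intervals are narrow at such high counts and leave out the spread between libraries, so the lack of overlap is no test of genotype.

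**Figure D3:**
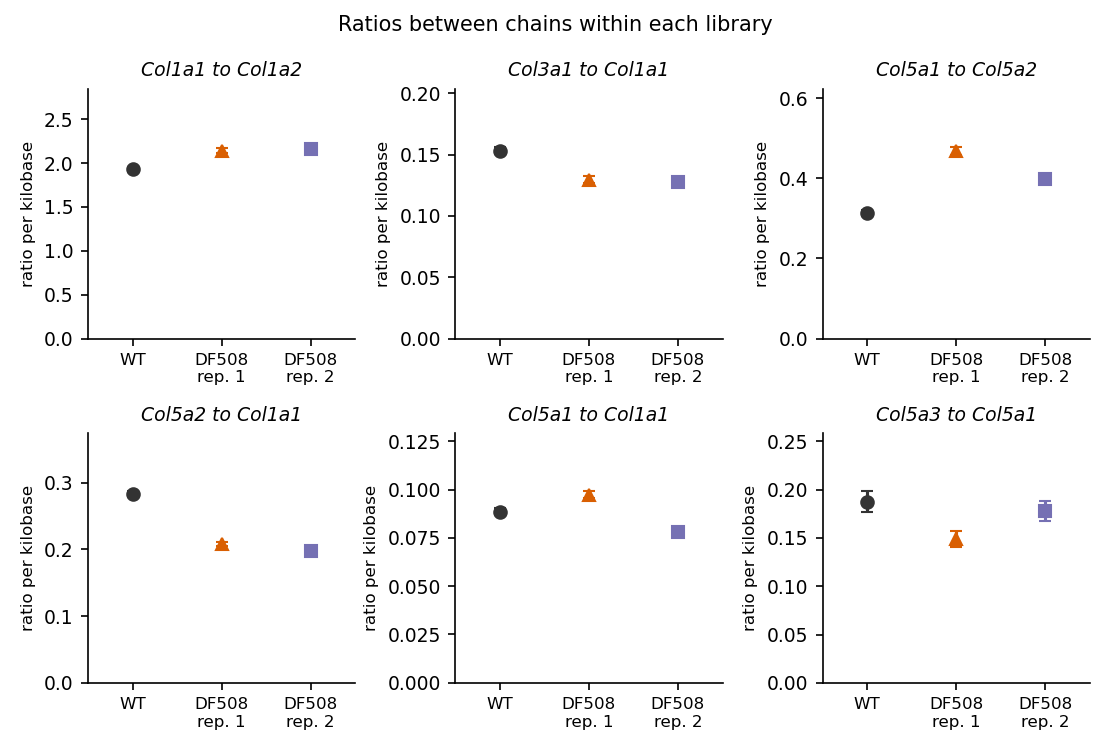
Ratios between chains in each library, as estimated count per kilobase of gene length, with exact 95% intervals for counting error; each panel has its own axis from 0. Col1a1 to Col1a2 and Col5a1 to Col5a2 are lowest in WT, Col5a2 to Col1a1, Col3a1 to Col1a1 and Col5a3 to Col5a1 highest in WT, and Col5a1 to Col1a1 has WT between the DF508 libraries.

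The ratio of Col5a2 to Col1a1 was 0.283 in WT, 0.207 in DF508 replicate 1 and 0.196 in replicate 2, a difference from WT of -26.6% and -30.5%. The ratio of Col3a1 to Col1a1 was 0.153, 0.130 and 0.128, a difference of -15.4% and -16.5%. In both ratios the DF508 libraries were closer to each other than to WT. The ratio of Col27a1 to Col1a1 was 0.00428, 0.00479 and 0.00509, so that chain stood 11.8% and 18.8% higher against Col1a1 than in WT. All ratios to Col1a1, and that of Col1a1 to Col1a2, share Col1a1, which was not called, so they are not separate differences. Col3a1 itself was nearly level, at 1980, 2016 and 2046 CPM, so its ratio to Col1a1 mostly repeats the difference of Col1a1.

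Within collagen V, Col5a1 to Col5a2 was 0.312 in WT, 0.468 in DF508 replicate 1 and 0.397 in replicate 2. The message for Col5a2 therefore exceeded that for Col5a1 in every library, 3.20-fold in WT and 2.14-fold and 2.52-fold in DF508. The common collagen V molecule holds a pair of Col5a1 chains for each Col5a2 chain, but RNA ratios do not measure chain ratios in protein. In Col5a1 to Col5a2 WT was lowest, but the DF508 libraries were 0.0713 apart, nearly as far as the gap of 0.0846 to WT. Col5a3 to Col5a1 was 0.188, 0.149 and 0.178, and Col5a1 to Col1a1 was 0.0882, 0.0971 and 0.0779, with WT between the DF508 libraries. Col11a1 to Col5a1 was 0.0778, 0.0629 and 0.0885, again with WT in between. Col2a1 to Col11a1 was 0.00696, 0.00885 and 0.0244 and rests on the 3 to 13 counts of Col2a1. Ratios with Col5a1 carry the uncertainty of its shared reads.

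Promoter sequence, from 250 bases before to 50 after the start, was matched in the RefSeq table of GRCm38.p6 for 6 members, Col1a2, Col3a1, Col5a1, Col5a3, Col11a1 and Col27a1. It was searched on both strands for CCAAT, the box bound by the factor NF-Y, for GGGCGG, the box bound by Sp1, and for TATAAA. The CCAAT box was found in 3 of the 6, and in 37.4% of 32851 promoters. GGGCGG was found in 5 of the 6 and in 35.7% of all, and TATAAA in Col3a1 alone and in 13.6% of all; no matches in the members overlapped. The 61 bases around the CCAAT match farthest upstream are shown, 5′ to 3′ along the gene with the match in capitals (ATTGG is CCAAT on the other strand).
Col1a2, chr6:4505481-4505541, plus strand, 109 bases before the start: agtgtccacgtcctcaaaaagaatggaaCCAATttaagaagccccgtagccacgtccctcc
Col5a3, chr9:20815157-20815217, minus strand, 122 bases before the start: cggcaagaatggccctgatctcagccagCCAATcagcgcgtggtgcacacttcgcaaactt
Col11a1, chr3:114030433-114030493, plus strand, 79 bases before the start: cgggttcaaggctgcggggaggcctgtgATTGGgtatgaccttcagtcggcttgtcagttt
Col1a2 has another match, as ATTGG and 0 bases before the start, which is not shown. A match is a run of letters, not a measured site. The fitted log2 fold changes of the 3 genes with a CCAAT match were 0.09 for Col1a2, 0.02 for Col5a3 and 0.17 for Col11a1, none of them called, and for Col3a1, with the TATAAA match, -0.0076.

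The genes that modify, move, trim, crosslink, bind, degrade and regulate fibrillar collagens were taken as 8 lists with 107 genes. Of 100 tested, 3 rose and 5 fell in DF508, where 0.489% of all 12888 genes tested rose and 0.9% fell. The lists were chosen with earlier results of these data known, so these counts are a description. None of these 8 was called in the fits on library totals alone, without a filter or on log2 FPKM, which called no gene at all. The lists lay near the median of all genes, 0.0055, with medians of -0.13 to 0.13 on the log2 scale.

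**Figure D4:**
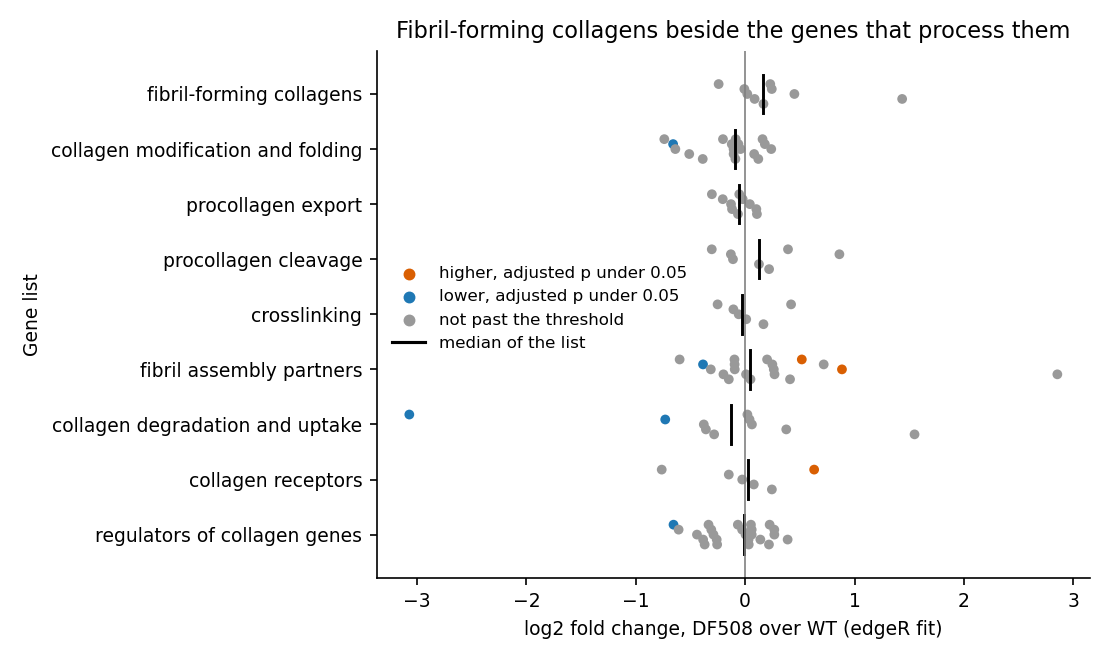
Fitted log2 fold change, DF508 over WT, of the 9 fibril-forming collagens (top row) and of the tested genes in 8 lists of collagen processing, 1 point per gene with the list's median as a black line. The 8 genes past the threshold are coloured, Mmp13 lies at -3.07, and the medians of the 8 lists run from -0.13 to 0.13.

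Among the enzymes and chaperones that modify and fold procollagen, 1 of 18 tested fell and 17 were not called; the list's median log2 fold change was -0.098. The gene that fell was P4ha2, a catalytic subunit of prolyl 4-hydroxylase, which stabilises the triple helix. It went from 104 CPM in WT to 72.7 and 62.9 CPM in DF508, 1.58-fold lower (edgeR adjusted p = 0.0429), and was not called by DESeq2's Wald test. None of 10 tested export genes was called (median -0.06), where Sec31a, a COPII coat subunit and the most abundant by FPKM, had 444, 447 and 435 CPM. None of 7 tested procollagen cleavage genes was called (median 0.13), where Pcolce, the enhancer of C-propeptide removal, had 1499, 1421 and 1404 CPM. None of 6 crosslinking genes was called (median -0.025), where lysyl oxidase, Lox, had 9040, 8639 and 8666 CPM.

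Among 19 partners of fibril assembly 2 rose and 1 fell, with a median of 0.049. Col14a1, a collagen that coats fibrils, went from 66.8 CPM to 124 and 131 CPM, 1.85-fold higher (edgeR adjusted p = 0.0112). Decorin, Dcn, a proteoglycan that binds fibrillar collagen and limits fibril width, went from 725 to 1031 and 1110 CPM, 1.43-fold higher (edgeR adjusted p = 0.0417). Fibronectin, Fn1, on whose network cells lay down collagen, went from 28695 to 23013 and 22297 CPM, 1.31-fold lower (edgeR adjusted p = 0.0207), and was not called by DESeq2's Wald test or with a mean of at least 50 counts.

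Of 10 tested genes of collagen degradation and uptake 2 fell and 8 were not called, and the median was -0.13. Mmp13, the collagenase that cuts fibrillar collagen, had 221 CPM in WT and 28.0 and 26.1 CPM in DF508, 8.40-fold lower (edgeR adjusted p = 1.11e-05). Mmp14, a membrane-bound collagenase that shares reads with another gene and is uncertain, had 636, 396 and 394 CPM, 1.66-fold lower (edgeR adjusted p = 0.0111). Of 6 tested collagen receptors 1 rose (median 0.026): Itga1, the collagen-binding integrin alpha 1, from 92.3 to 141 and 153 CPM, 1.55-fold higher (edgeR adjusted p = 0.0404), and not called by DESeq2's Wald test. Of 24 tested regulators 1 fell (median -0.012): the transcription factor Egr2, from 62.5 to 40.4 and 41.4 CPM, 1.57-fold lower (edgeR adjusted p = 0.0453), and not called by DESeq2's Wald test or with upper-quartile factors. The tendon factor Scx had 3.02, 2.10 and 2.48 CPM and Sox9, which drives Col2a1 in cartilage, 54.2, 66.4 and 79.9 CPM; neither was called by edgeR. Markers of smooth muscle and of proliferation were higher in both DF508 libraries, as given above, and their part in these calls was not tested. In bulk RNA, fewer cells of a type and less RNA per cell cannot be told apart.

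Genes with the most similar pair of differences from WT were looked for among 105 other genes of these lists with a mean of at least 5 CPM, by the distance over the 2 DF508 libraries on the log2 scale. Nearest to Col1a1, at 0.23 and 0.26, were Tgfb1 (0.23 and 0.20), Sparc (0.15 and 0.25) and Col6a2 (0.30 and 0.22). Nearest to Col3a1 were Smad4, Col5a3 and Crtap, and nearest to Col5a2, at -0.22 and -0.26, were Plod3, Mkx and Tgfbr2. Among all 10962 genes at this level, 359 lay as near to Col1a1 as the farthest of its 3 neighbours, 459 to Col3a1 and 398 to Col5a2, so with 3 libraries such likeness is common.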

How the data were processed

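Each of 3 libraries has its own table. Per the submitters' processing notes, Bowtie and RSEM were used with the mm9 genome; tool versions and the annotation were not given in the sources used here. The deposited expected counts are RSEM estimates, not normalized, and the deposited FPKM are scaled to length and library size by the authors. Genes absent from a table were set to 0. Expected counts were rounded for testing. Of 16621 IDs, 16579 matched a symbol in the RefSeq table of GRCm38.p6.

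Genotype was tested with edgeR 4.0.16 (R 4.3.3): filterByExpr, TMM, quasi-likelihood test, Benjamini-Hochberg over 12888 genes, threshold 0.05, with 1 residual and 7.72 prior degrees of freedom. Standard errors are the log2 fold change over the square root of F, and 95% intervals use 8.72 degrees of freedom. limma 3.58.1 and DESeq2 1.42.0 served alternatives, listed in the closing section. The test was checked on simulated counts in which WT and DF508 were given the same spread, so this check cannot show how WT varies. Counting intervals cover counting error only, since no molecular identifiers are described. Totals were 5241826 to 5298326 counts per library.

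The members and lists were chosen with earlier results of these data known. Genes named are the 9 members, Col11a2 and Col24a1, up to 3 called genes per direction of each list by fold change or, where none was called, the one with the highest FPKM, the 3 nearest in pattern to Col1a1, Col3a1 and Col5a2, and defining markers. Thbs4, Sox9 and Scx are markers. Whether counting used strand was not given in the sources used here. No protein table was used; coding sequence and exons were read from GENCODE M21 in its place, a choice made after the references were seen. No transcript or promoter coordinate of GRCm38 was joined to the mm9 values.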

Additional observations from a re-analysis of the deposited data

How the results depend on the processing

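No paired analysis was possible because WT is 1 library without a replicate number. Of 104 recalculated fold changes of the members with an adjusted p, 98 kept their direction and stayed on their side of the threshold, 1 passed it and 5 turned in sign. Of 19 without one, those with a DF508 library left out and Col2a1 in DESeq2, 18 kept their direction and 1 turned. The one that passed was Col27a1 with edgeR's likelihood ratio test (log2 0.45, adjusted p = 0.0489; range over its alternatives 0.0489 to 1.00). All that turned were of Col3a1, whose value was near 0: 0.013 with upper-quartile factors, 0.037 on library totals alone, 0.037 on log2(FPKM + 1) with and without a filter, 0.037 on log2(FPKM + 0.1), and 0.0010 without DF508 replicate 1. With either DF508 library left out it ranged from -0.019 to 0.0010, and without replicate 2 it kept its sign. Each single DF508 library against WT is a value with no test, and the count of called genes has none there.

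The count of called genes, 179, was 65 with DESeq2's Wald test and 403 with edgeR's likelihood ratio test. It was 0 with edgeR on library totals alone (1253 genes at an unadjusted p under 0.05) and 0 without a filter (1123), where the prior degrees of freedom were 2.57 and 1.78. It was 0 in limma on log2(FPKM + 1), 0 on log2(FPKM + 0.1) and 0 on log2(FPKM + 1) without a filter (1145, 1159 and 1615). The 8 called pathway genes lost their call in these 5 fits. DESeq2 size factors, upper-quartile factors, factors without the 9 members, a mean of at least 50 counts and limma-voom gave 157 to 189. The members' share of counts, 1.11-fold higher in DF508, was 1.08-fold on TMM-normalized library sizes and 1.13-fold as a share of FPKM. The 9 chain ratios of DF508 over WT, taken from counts or counts per kilobase in place of FPKM, moved by less than the SD of the DF508 pair. Depth limits Col2a1 and Col11a2, at 2 to 13 counts.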
